A study of Canis lupus familiaris with 14 samples.

Results

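Of the 14 lymph node arrays, 10 came from dogs with lymphoma, and these 10 were split by treatment history: 4 dogs had relapsed after earlier chemotherapy (RB07, FS25, FS22 and FS21) and 6 were naive to it (NE45, RB10, NE42, NE41, RB03 and RB16). The split was taken from the study's table of dogs through the dog's ID in the sample title. Each array measured RNA of a fine needle aspirate of 1 node, drawn from a client-owned dog with spontaneous disease before an investigational PI3K inhibitor was given. The other 4 arrays held normal nodes of beagles, with 3024l and 3024r from the same dog, and they serve here only as a reference level.

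The relapsed dogs were boxers (RB07 and FS25), a beagle (FS22) and a Pitt Bull Terrier/Labrador mix (FS21). The naive dogs were a Golden Retriever (NE45), a boxer (RB10), a Labrador (NE42), a boxer/Pitt Bull mix (NE41), a pointer (RB03) and a Chesapeake Bay Retriever (RB16). The drugs each relapsed dog had received, and how long before the aspirate, are not given in the sources used here. The study's clustering, which used these arrays among its data, placed the lymphomas in 2 classes. Class E-J held the relapsed dogs FS22 and FS21 beside 4 naive dogs, and class K-N the relapsed dogs RB07 and FS25 beside the naive dogs NE45 and RB10. Class was a term of the model throughout. Other traits were not balanced. All 4 relapsed dogs were female against 1 of 6 naive dogs (RB16). Of the 4 relapsed dogs 3 came from clinic FS, which gave no naive dog, whereas the 3 dogs of clinic NE were all naive. The relapsed dogs all had stage III disease and the naive dogs stages III to V. By immunostaining, 2 of the 4 relapsed and 1 of the 6 naive lymphomas were T-cell. Earlier treatment, sex and clinic cannot be told apart with any certainty in these dogs, and in the bulk RNA of an aspirate fewer cells of a type cannot be told apart from less RNA per cell.

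Dogs with lymphoma are usually treated with combinations built on cyclophosphamide, doxorubicin, vincristine and prednisone. Cyclophosphamide alkylates DNA, doxorubicin traps topoisomerase II on it, vincristine blocks the assembly of microtubules, and prednisone acts through the glucocorticoid receptor. Cells that survive such treatment are known to differ in drug efflux pumps, drug-metabolising enzymes, drug targets, DNA repair or the apoptotic machinery, and the comparison asked which of these genes stood apart in the dogs treated before.

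Signals are MAS5 values, for which the authors scaled each array to a common trimmed mean, and every level below is a log2 signal unless it is said to be linear. A log2 difference is relapsed minus naive with class in the model unless stated otherwise. The arrays of both groups were alike in brightness, with median linear signals of 94.4 to 130.4 in the relapsed and 85.5 to 130.9 in the naive group. The ratio of 3' to middle probe sets, which rises as RNA is degraded, was 5.30 to 7.47 and 3.55 to 8.03 for GAPDH, and 3.17 to 9.64 and 4.08 to 6.98 for actin. For actin, RB07 at 9.64 and FS25 at 9.15, the relapsed dogs of K-N, stood above all other arrays, so every difference within K-N rests on 2 relapsed arrays that stand apart on this measure, and its part in them was not tested. Most markers of lineage looked at followed the classes, which were drawn from such profiles, and not always the diagnosis. The B-cell marker MS4A1 did not, at 4.90 to 12.50 in E-J against 2.89 to 10.89 in K-N. CD3E, part of the T-cell antigen receptor, was 12.11 to 12.56 in K-N against 7.22 to 9.29 in E-J, and CD79B, part of the B-cell antigen receptor, was 2.20 to 7.39 against 9.76 to 10.998. RB07 and RB10, diagnosed as B-cell, had CD3E levels of 12.11 and 12.54, and FS22, diagnosed as T-cell, had 8.80 beside a CD79B level of 10.47.

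The 10 lymphomas separated first by class and not by treatment history. The study drew the classes from profiles that included these arrays, so a split by class was favoured in advance. On the plot of principal components the first component held 31% of the variance and put all 4 K-N dogs at one end, relapsed and naive alike. On the second, with 13.3%, RB07 stood at the upper end at 67.2 while the other relapsed dogs lay between -4.6 and 11.9, inside the range of the naive dogs (-38.2 to 26.3). Treatment history took 9.30% of the variance in log2 signal after class (permutational analysis of variance, 1-sided exact p = 0.211 over all 90 assignments of the status within classes, smallest possible p 0.0111). Class took 30.8%, but it was itself drawn from such profiles, so its share cannot be set against that of treatment history. An arbitrary term of 1 degree of freedom after class takes 8.66% on average. After class, sex took 8.65%, clinic 16.3% with 2 degrees of freedom and diagnosis 7.61%.

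**Figure D1:**
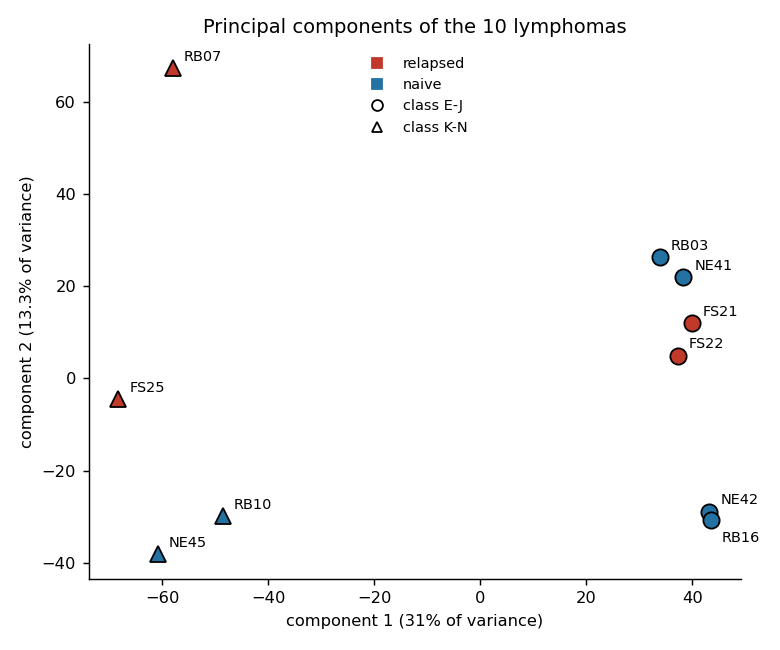
Principal components of the log2 signals of 8567 genes in the 10 lymphomas, with the share of variance on each axis. Red marks the 4 relapsed and blue the 6 naive dogs, circles class E-J and triangles class K-N. The classes lie at opposite ends of component 1, and RB07 is highest on component 2 at 67.2.

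Of 8567 genes tested with limma, 3 passed an adjusted p of 0.05 (0.035% of those tested). MYORG, which encodes a glycosidase-like membrane protein, fell in the relapsed dogs (1 gene lower, 0.0117%), and S100A8 and MGMT rose (2 genes higher, 0.0233%). An unadjusted p under 0.05 was found for 493 genes (5.75%), 284 of them higher (3.32%) and 209 lower (2.44%) in the relapsed dogs. The median log2 difference of all genes was 0.04. The relapsed and naive arrays did not overlap for 81 genes (0.945%), 48 with the relapsed dogs above (0.56%) and 33 with them below (0.385%).

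MGMT encodes the methyltransferase that removes alkyl groups from guanine in DNA and thereby reverses damage left by alkylating agents. Its log2 signal was 6.94 in RB07, 6.92 in FS25, 6.71 in FS22 and 6.80 in FS21. In the naive dogs it ran from 2.27 over a median of 2.88 to 4.71, and in the 4 normal nodes from 6.88 to 6.995. The groups did not overlap, the relapsed dogs lay near the normal nodes, and the naive dog nearest to them was RB16, the female one. The log2 difference was 3.71 (standard error 0.46, limma adjusted p = 0.038), with 3.69 in E-J and 3.74 in K-N. In linear units the relapsed dogs had signals of 104.9 to 123.0, just above the filter's minimum of 100, against 4.8 to 26.2 in the naive dogs. The gene entered the test through the relapsed group alone, so it had to differ. It was read by a single probe set, and with all signals raised to at least 100 the log2 difference was 0.19 (adjusted p = 0.852). The size of the difference is therefore not known beyond MGMT being above the minimum in 4 of 4 relapsed and below it in 6 of 6 naive dogs.

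MYORG had a log2 signal of 3.15 in RB07, 3.29 in FS25, 2.67 in FS22 and 3.54 in FS21. The naive dogs lay between 5.48 and 7.06 with a median of 6.73, and all 6 were above every relapsed dog. This gave a log2 difference of -3.31 (standard error 0.32, limma adjusted p = 0.0132), and it was -3.77 in E-J and -2.69 in K-N. The normal nodes spanned both ranges, from 2.55 in dog 63 to 6.99 in dog 2970. MYORG too was dim, with linear signals of 6.4 to 11.6 against 44.7 to 133.6. It passed the filter through 3 naive dogs alone and no relapsed one, so that a difference was favoured by the filter as for MGMT, and with signals raised to at least 100 its log2 difference was -0.14 (adjusted p = 0.883).

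S100A8 and S100A9 encode both subunits of calprotectin, an abundant protein of neutrophils and monocytes. S100A8 was bright, with a log2 signal of 11.90 in RB07, 11.45 in FS25, 10.17 in FS22 and 10.41 in FS21. The naive dogs ran from 6.07 over a median of 7.50 to 9.25, so that the groups did not overlap, and the normal nodes from 9.35 to 13.30. The log2 difference was 2.97 (standard error 0.36, limma adjusted p = 0.038), which is 7.83-fold, with 3.35 in E-J and 2.45 in K-N. RB16, the female naive dog, had the lowest S100A8 of all 10. Within clinic RB, RB07 stood at 11.90 against 9.25, 6.68 and 6.07 in RB10, RB03 and RB16. S100A9 had a log2 signal of 12.43 in RB07, 10.74 in FS25, 9.42 in FS22 and 9.88 in FS21 against 5.38 to 8.46 in the naive dogs, again without overlap. Its log2 difference of 3.06 (standard error 0.54) did not pass over all genes (limma adjusted p = 0.444).

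**Figure D2:**
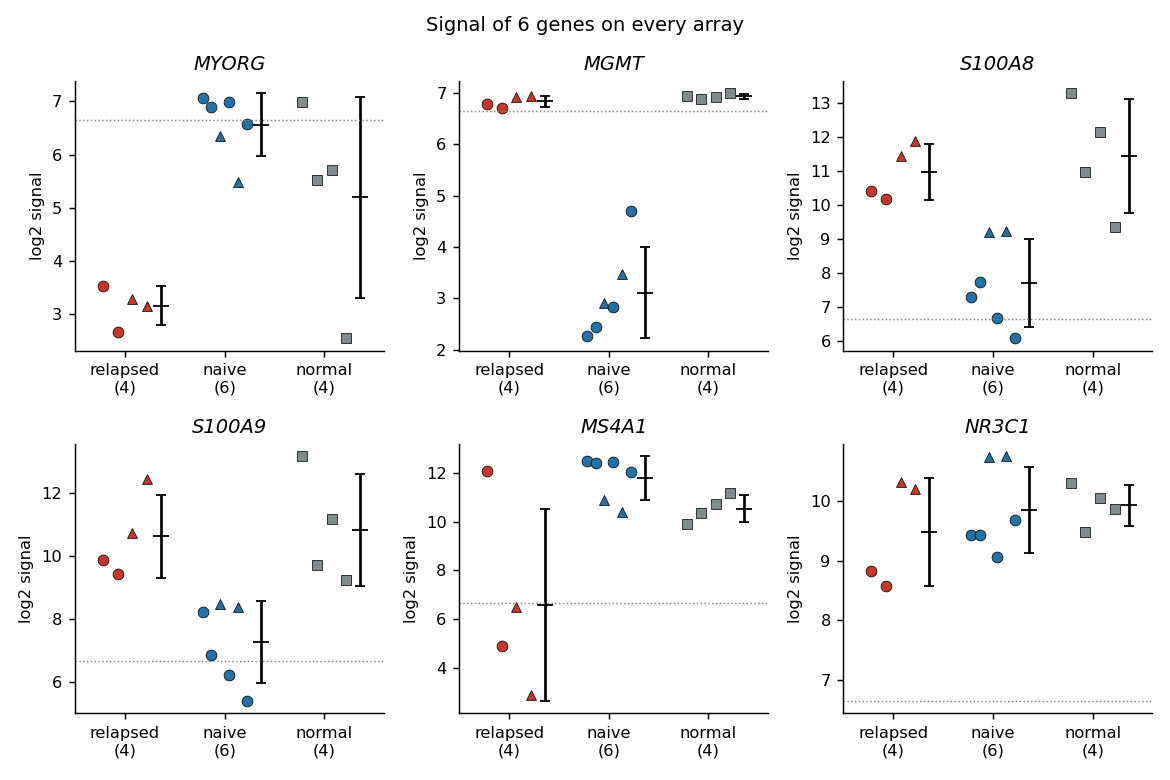
Log2 signal of 6 genes on each array, with relapsed dogs in red, naive dogs in blue and normal nodes in grey (circles class E-J, triangles class K-N, squares normal). The bar beside each group is its mean with 1 SD, and the dotted line marks a signal of 100. MGMT, S100A8 and S100A9 are higher and MYORG lower in every relapsed than in every naive dog, and MS4A1 is low in 3 of the 4 relapsed dogs.

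Of 25 tested myeloid markers, 5 were higher at an unadjusted p under 0.05 (3.32% of all genes) and 14 were positive (53.7% of all genes), with a median log2 difference of 0.13 against 0.04 for all genes. The median was -0.07 without RB07 and 0.54 without FS21. Besides S100A8 and S100A9 these were CD14, SPI1 and C1QB. CD14, the co-receptor of lipopolysaccharide on monocytes, was 11.60 in RB07, 9.76 in FS25, 8.21 in FS22 and 7.997 in FS21, against 6.97 to 8.17 in the naive dogs, so the K-N relapsed dogs were high and the E-J ones close to the naive range. SPI1, a transcription factor of myeloid and B cells, was 7.08 to 8.68 in the relapsed dogs, and its difference of 1.90 included RB10, which alone was at 1.73. C1QB, a complement subunit of macrophages, had a log2 difference of 0.64 (standard error 0.28, limma adjusted p = 0.831). Over the 34 measured markers the summed linear signal was 19082 to 34888 in the relapsed and 12550 to 53520 in the naive dogs. MPO, an enzyme of neutrophil granules, was 2.81 to 7.52 in the relapsed against 2.20 to 8.22 in the naive dogs. The neutrophil elastase gene ELANE, too dim to be tested, was 4.47 to 6.44 against 1.38 to 6.37. Of 3 tested blood genes, ALAS2, which starts haem synthesis in red cell precursors, was 7.88 to 9.21 in the relapsed against 6.37 to 7.76 in the naive dogs, while the red cell gene GYPC had a log2 difference of -0.85 and the platelet gene GP9 of 1.05. The part of blood or myeloid cells in the S100A8 difference was not tested.

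Drug efflux pumps showed no common direction. Of the 9 tested transporters and vault genes none passed, 4 were positive, and their median log2 difference was -0.04. ABCB1 encodes P-glycoprotein, a pump of doxorubicin and vincristine, and was dim, at 8.12 in RB07, 6.84 in FS25, 6.57 in FS22 and 3.01 in FS21 against 2.55 to 6.96 in the naive dogs. All 4 normal nodes, at 7.51 to 8.64, exceeded every lymphoma but RB07. The log2 difference was -0.14 with a 95% interval of -2.37 to 2.09, and its sign changed with several settings. NE45, the only dog with positive immunostaining for the MDR protein, had an ABCB1 level of 6.84. ABCC1, which exports glutathione conjugates and doxorubicin, was 8.48 in RB07, 8.90 in FS25, 9.23 in FS22 and 9.93 in FS21. The naive dogs of E-J lay at 8.98 to 9.79, and NE45 and RB10 at 7.69 and 7.28. The log2 difference was 0.64 (interval -0.04 to 1.32), with 1.21 in K-N and 0.22 in E-J.

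ABCG2, a pump of anthracyclines, had the smallest p of the transporters and a log2 difference of -1.12 (standard error 0.42, unadjusted p = 0.024, limma adjusted p = 0.831). Its level was 6.83 in RB07, 7.67 in FS25, 4.72 in FS22 and 5.78 in FS21 against 5.48 to 8.75 in the naive dogs, and the groups overlapped. Its 2 probe sets did not follow each other, and FS22, for example, read 7.65 on one and 1.79 on the other. MVP, the major vault protein, had a log2 difference of 0.50 (interval -0.49 to 1.498), and ABCC5 and ABCC10, further export pumps, had -0.28 and 0.08.

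**Figure D3:**
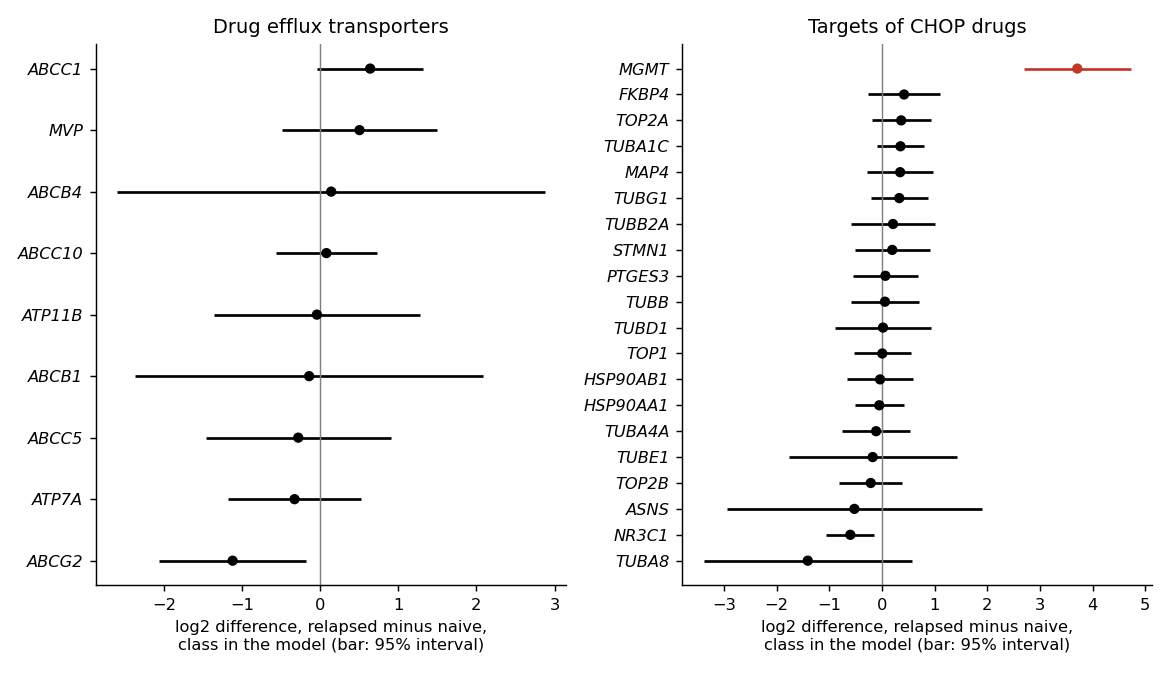
Log2 difference between relapsed and naive dogs, with class in the model, for the 9 tested efflux transporters and the 20 tested genes listed with the drug targets. Points are estimates and bars 95% intervals of limma over 10 arrays, and red marks an adjusted p under 0.05. MGMT alone is red, at 3.71, and passed the filter through the relapsed dogs alone, and ABCC1 and ABCB1 have intervals that include 0.

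Among the genes listed with the targets of the drugs, 1 of 20 passed, against 0.035% of all genes. This was MGMT, a repair enzyme and not itself a target, which the filter bound to differ, so the count says nothing of the list. The median log2 difference was 0.04, equal to that of all genes. TOP2A, the enzyme that doxorubicin poisons, was bright at 12.57 to 13.76 in the relapsed and 11.84 to 13.54 in the naive dogs (log2 difference 0.37, interval -0.20 to 0.93). TUBA1C, an alpha-tubulin, had a log2 difference of 0.35 (interval -0.10 to 0.81). NR3C1 encodes the glucocorticoid receptor. It was 10.20 in RB07, 10.32 in FS25, 8.58 in FS22 and 8.83 in FS21. The naive dogs of E-J lay at 9.06 to 9.67, and NE45 and RB10 at 10.73 and 10.75, so each relapsed dog was below each naive dog of its class. For any gene 1 of the 90 assignments within classes gives this (0.0111), and the share of all genes that show it was not counted. The log2 difference was -0.60 (interval -1.06 to -0.14, unadjusted p = 0.0156) and did not pass over all genes (limma adjusted p = 0.831). Within clinic RB alone, where class is not in the fit, it was 0.37.

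Of 26 tested genes that glucocorticoids induce, 19 were positive and 4 were higher at an unadjusted p under 0.05, where 3.32% of all genes were higher, and none passed over all genes. Their median log2 difference was 0.42, with 0.84 in K-N and 0.05 in E-J. RGS2, a brake on G protein signalling, was 10.78 in RB07, 11.82 in FS25, 8.62 in FS22 and 8.32 in FS21, above each naive dog of its class, with a log2 difference of 1.83 (standard error 0.45, limma adjusted p = 0.831). SESN1, a sestrin that restrains mTORC1, had a log2 difference of 0.85 and likewise no overlap within the classes. The share of all genes with no overlap within the classes was not counted. HSD11B1, which regenerates active cortisol, was 7.56 to 8.74 in the relapsed dogs and 3.47 to 7.27 in the naive, without overlap (log2 difference 2.23). ANXA1, an anti-inflammatory mediator, had 1.35. FKBP5, a co-chaperone of the receptor, was 13.06 in RB07, 13.07 in FS25, 11.51 in FS22 and 11.86 in FS21, with a log2 difference of 0.47 (interval -0.07 to 1.004). Whether any dog was on prednisone when the aspirate was taken is not given in the sources used here.

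The median log2 difference of 14 genes of drug metabolism was 0.22. At an unadjusted p under 0.05, 1 of them was higher (3.32% of all genes). This was NQO2, a quinone reductase, at 7.88 in RB07, 6.83 in FS25, 6.22 in FS22 and 4.46 in FS21 against 2.49 to 6.90 (log2 difference 2.24, unadjusted p = 0.0422 by limma). Of 29 genes of glutathione and oxidant defence, 1 was higher, GPX1, a glutathione peroxidase, by 0.82, and the median was 0.16. A single gene in a list of such size says nothing of the list, and neither NQO2 nor GPX1 passed over all genes. None of 5 drug uptake carriers had an unadjusted p under 0.05 (median 0.05).

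MS4A1 encodes CD20, the surface protein of mature B cells. Its log2 signal was 2.89 in RB07, 6.48 in FS25, 4.90 in FS22 and 12.07 in FS21, against 10.40 to 12.50 in the 6 naive dogs and 9.88 to 11.17 in the normal nodes. RB07, FS25 and FS22 were thus below every naive and normal node, on each of the 2 probe sets, and FS21 was within the naive range. MS4A1 had a log2 difference of -4.76 with a standard error of 1.27 (limma adjusted p = 0.831), and leaving out 1 dog gave -6.62 (without FS21, adjusted p = 0.0367) to -3.43 (without FS22, adjusted p = 0.767), with FS21 the only dog whose removal made it pass. In FS22 CD22 was 12.44, CD79A 10.09 and BANK1 12.17, each within the range of the naive E-J dogs. Those ranges were 11.81 to 13.91, 9.29 to 11.50 and 11.74 to 12.95. The B-cell gene FCRLA was lower in FS22, at 5.95 against 6.72 to 7.92 in those dogs. Over the 19 measured pan-B-cell markers, which include MS4A1, the mean log2 signal was 8.61 in FS22 against 8.86 to 9.62 in those dogs. NE45 and RB10, the naive K-N dogs, had MS4A1 levels of 10.89 and 10.40 beside CD3E levels of 12.56 and 12.54.

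Across 17 tested pan-B-cell markers the median log2 difference was -0.91, with -0.21 in E-J and -0.76 in K-N, and leaving out 1 dog gave -1.19 (without NE42) to -0.56 (without FS25). At single genes there were 4 lower at an unadjusted p under 0.05, where 2.44% of all genes were lower, and none called. Beside MS4A1 these were BANK1, an adaptor of the B-cell receptor (-1.81), FCRLA, an Fc receptor-like protein of germinal centre B cells (-1.17), and BLK, a B-cell kinase (-1.64). BANK1 had -0.36 in E-J and -3.73 in K-N, and BLK 0.11 and -3.96, with limma adjusted p of 0.438 and 0.26 for the difference between classes. CD79B was 2.20 in RB07 and 2.91 in FS25 against 6.20 in NE45 and 7.39 in RB10. Its log2 difference was -4.24 in K-N and 0.18 in E-J, and the test of the difference between classes gave a limma adjusted p of 0.26. Of 25 T-cell markers 13 were positive, 1 (CD1A6) was lower at an unadjusted p under 0.05 and the median was 0.05. Of 10 plasma cell genes SLAMF7, a surface receptor of plasma and NK cells, had a log2 difference of -1.45 (limma adjusted p = 0.831).

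Of 21 tested stromal genes, 6 were higher and none lower at an unadjusted p under 0.05 (3.32% and 2.44% of all genes), and 15 were positive (53.7% of all genes). The median log2 difference was 0.92, with 0.80 in E-J and 0.10 in K-N, and none passed over all genes. It rested in part on single dogs, being 0.21 without RB07, 0.38 without FS22 and 1.16 without FS25. COL1A1, the main chain of type I collagen, was 11.88 in RB07, 9.47 in FS25, 9.997 in FS22 and 10.59 in FS21 against 6.96 to 10.12 in the naive dogs (log2 difference 1.70, standard error 0.56, limma adjusted p = 0.831). COL5A1, a minor fibrillar collagen that passed the filter through relapsed dogs alone, had a log2 difference of 1.72, ACTA2, the actin of smooth muscle and myofibroblasts, 1.43, and TIMP1, an inhibitor of metalloproteinases, 1.73. RB07 was highest of the 10 dogs in COL1A1, ACTA2 and TIMP1. The log2 differences of the 21 tested stromal genes ran from -1.31 to 1.88. The mean log2 signal of the 31 measured stromal markers was 6.90 to 8.52 in the relapsed and 6.44 to 7.35 in the naive dogs. It was 8.88 to 9.38 in the normal nodes, so each lymphoma was below each normal node. Their summed linear signal was 26989 to 45861 in the relapsed and 16347 to 57095 in the naive dogs, so that NE42 and RB03 exceeded every relapsed dog. All 10 tested endothelial genes were positive, with a median of 0.61. FLT1 and KDR, receptors of vascular endothelial growth factor, had log2 differences of 1.24 and 1.28 at an unadjusted p under 0.05. The groups overlapped, however. The mean log2 signal of the 21 measured endothelial markers was 5.32 to 6.63 in the relapsed and 5.37 to 6.44 in the naive dogs. The relapsed dog FS25 was the lowest of the 10 lymphomas. Of 6 epithelial, fat and muscle genes 3 were positive (median -0.23).

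Of 71 tested mitotic genes 56 were positive with a median log2 difference of 0.22, where 53.7% of all genes were positive. The median was 0.47 in E-J and -0.03 in K-N, and 5 genes were higher and 1 lower at an unadjusted p under 0.05 (3.32% and 2.44% of all genes). Without FS21 the median was 0.06 and without NE45 0.40. INCENP, a subunit of the chromosomal passenger complex, was 8.18 in RB07, 8.04 in FS25, 8.11 in FS22 and 8.60 in FS21 against 6.97 to 7.89, without overlap (log2 difference 0.80, limma adjusted p = 0.831). TTK, a kinase of the spindle checkpoint, and SMC2, a condensin subunit, had 0.80 and 1.14. SMC2 passed the filter through relapsed and KIF4A, a chromosome-bound kinesin, through naive dogs alone. KIF4A had -1.20, and turned positive with the brightest probe set, with the mean of linear signals or with signals raised to 100. Of 49 replication genes 33 were positive with a median of 0.13 (0.59 in E-J and -0.29 in K-N), which was -0.02 without FS21 and 0.31 without NE45. POLE3, ASF1B, MCM5 and POLA2, which serve the replicative polymerase, histone deposition, the helicase and primase, had log2 differences of 1.18, 1.06, 0.95 and 0.61, each at an unadjusted p under 0.05 only.

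Of 87 genes of DNA repair and checkpoints, 41 were positive and the median log2 difference was -0.02. Beside MGMT, RAD51D and RECQL5, a helicase, had log2 differences of 1.15 and 1.06, each at an unadjusted p under 0.05 only. FANCD2 of the Fanconi pathway had 0.55, and FANCL, its ubiquitin ligase, -0.77, likewise at an unadjusted p under 0.05 only. RECQL5 by its brightest probe set had -0.07. Of 32 genes of the BCL2 family and death receptors 16 were positive and the median was -0.02. CASP2, an initiator caspase, had 0.63 (limma adjusted p = 0.831) but -0.05 by its brightest probe set. BCL2L11, which encodes the death inducer BIM, had 0.83, with 2.41 in K-N and -0.35 in E-J. Of 24 genes that p53 induces 12 were positive (median 0.04). SESN1 had 0.85 and RRM2B, the p53-inducible ribonucleotide reductase subunit, -0.75, the members of the list at an unadjusted p under 0.05.

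**Figure D4:**
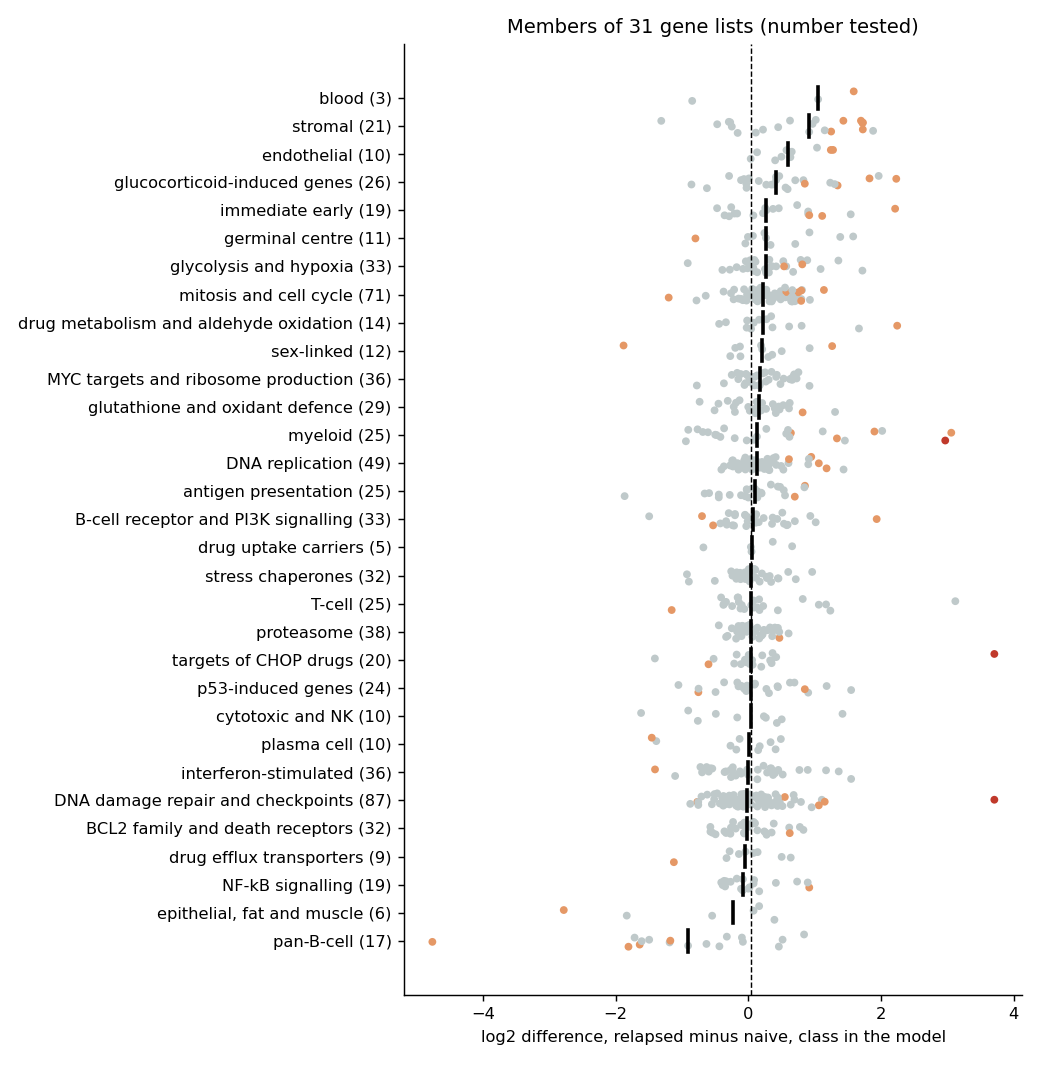
Log2 difference, with class in the model, of every tested member of 31 gene lists, ordered by the list's median (black bar). Grey points have an unadjusted p of 0.05 or more, orange a smaller one and red an adjusted p under 0.05, and the dashed line is the median of all 8567 genes, 0.04. The stromal list has a median of 0.92, which is 0.21 without RB07, and the pan-B-cell list of -0.91, which is -0.56 without FS25.

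Of 19 immediate early genes 13 were positive (median log2 difference 0.27). NR4A2, an orphan nuclear receptor, had 2.21, DUSP5, a phosphatase of ERK, 1.11, and NFKBIZ, a nuclear regulator of NF-kB, 0.92. Of 36 interferon-stimulated genes 16 were positive (median -0.01), and EPSTI1 was 6.43 to 10.01 in the relapsed dogs against 8.47 to 10.65 (log2 difference -1.41). In B-cell receptor and PI3K signalling, the pathway of the trial drug, the median over 33 genes was 0.08. RICTOR, the defining subunit of mTORC2, and PRKCB, the protein kinase C of the B-cell receptor, had -0.70 and -0.53, and PIK3R2, a regulatory subunit of PI3K, 1.94. TAP2 and DLA-DMB of antigen presentation had 0.70 and 0.85 (median of 25 genes 0.10), and HK1 and PKM of glycolysis 0.54 and 0.81 (median of 33 genes 0.27). All of these were at an unadjusted p under 0.05 only. MYC targets, stress chaperones, proteasome, NF-kB, germinal centre, plasma cell and cytotoxic genes had medians between -0.08 and 0.27.

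The other genes ranked highest by p did not pass over all genes (limma adjusted p of 0.381 to 0.831). With positive differences, RSPO3, a secreted amplifier of WNT signals, was 7.37 to 8.12 in the relapsed dogs and 5.72 to 6.63 in the naive, with a log2 difference of 1.51. UBB, a polyubiquitin gene, was 11.82 in RB07, 12.54 in FS25, 11.69 in FS22 and 11.82 in FS21, against 10.47 to 11.10. CYP7B1, an oxysterol hydroxylase, and KRI1, a nucleolar protein, had log2 differences of 1.67 and 1.03, and none of these 4 genes had overlapping groups. NACC1, a transcriptional regulator, and TRIP6, a protein of focal adhesions, had 1.68 and 1.95 with overlap. With negative differences, RPGRIP1, a ciliary scaffold protein, was 2.82 to 5.26 in the relapsed dogs and 5.89 to 7.50 in the naive. OSGIN2 (-1.33), EYA2, a phosphatase and transcriptional co-activator (-2.66), and APOBEC3Z3, an antiviral cytidine deaminase (-1.21), had no overlap either. MGLL, a lipase of monoacylglycerols, ZNF215, a zinc finger protein, CCL17, a chemokine that draws T cells, and SGF29, a histone reader of the SAGA complex, had -2.86, -2.50, -3.21 and -1.71 with overlap. RSPO3 and NACC1 passed the filter through relapsed dogs alone, and RPGRIP1, EYA2, ZNF215 and CCL17 through 3 naive dogs alone, so that their differences and their lack of overlap were favoured by the filter.

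The sign of the difference was opposite in E-J and K-N for 4158 of 8567 genes, or 48.5%. The test of the difference between classes called 1 gene (0.0117%), and 539 genes had an unadjusted p under 0.05 (6.29%). The called gene was SERTAD1, a co-regulator of E2F and cyclin-dependent kinase activity. It was 7.38 in RB07 and 7.11 in FS25 against 4.07 in NE45 and 4.34 in RB10, and 4.62 in FS22 and 4.34 in FS21 against 6.20 to 6.84 in the 4 naive dogs of E-J. The relapsed dogs were thus above the naive ones in K-N and below them in E-J. The log2 difference in K-N minus that in E-J was 5.11 (standard error 0.45, limma adjusted p = 0.0176). SERTAD1 reached 100 only in RB07 and FS25 of K-N and the naive dogs NE41 and RB16 of E-J. It thus passed the filter only through the groups where it was higher, so the filter favoured this difference. Without the filter the limma adjusted p was 0.181. These signals are low, 16.8 to 166.9 in linear units over the 10 dogs, and with signals raised to 100 the value was 0.67 (adjusted p = 0.678). MYORG, S100A8 and MGMT had the same sign in both classes, with unadjusted p of 0.0878, 0.227 and 0.962 by limma for a difference between them.

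**Figure D5:**
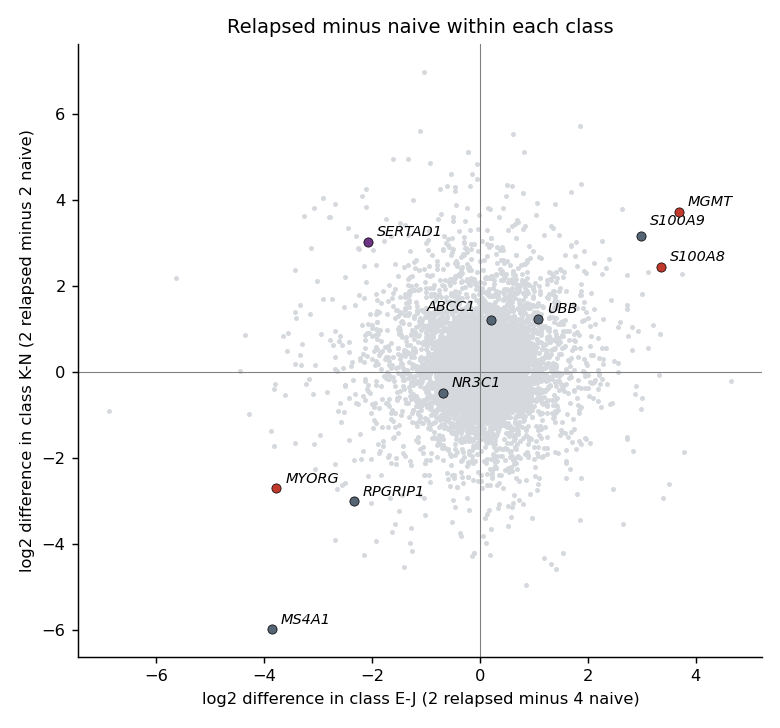
Log2 difference between relapsed and naive dogs in class E-J (2 against 4, horizontal) and in class K-N (2 against 2, vertical). Each grey point is 1 of 8567 genes, and red marks the 3 genes past an adjusted p of 0.05. Purple marks the gene called in the test between classes, which the filter favoured, and dark grey others named in the text. SERTAD1 lies at -2.07 and 3.04, and MGMT at 3.69 and 3.74.

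Of 12 tested sex-linked genes, EIF2S3, a translation initiation factor, had a probe set that followed sex. It read 1.88 in RB07, 5.97 in FS25, 1.45 in FS22, 1.19 in FS21 and 0.93 in RB16, the 5 females, against 7.998 to 11.86 in the 5 males. Its other 2 probe sets did not separate the sexes. The gene mean gave a log2 difference of -1.88 between relapsed and naive dogs, and 0.71 with sex in the model. With sex added to class the naive side rests on RB16 alone, and 6 genes passed. S100A8 (4.06) was among them, whereas MGMT (1.91) and MYORG (-3.15) did not pass. With clinic added the estimate rests on RB07 against 3 naive dogs, and 4 other genes passed. Leaving out RB16, the single female naive dog, kept S100A8, MGMT and MYORG past the threshold. Without RB16 all relapsed dogs are female and all naive dogs male, so this fit cannot tell relapse from sex.

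The mean of the relapsed dogs was the closer to the normal nodes for 4379 of 8567 genes, 51.1%, and for 251 of the 493 genes with an unadjusted p under 0.05, 50.9%. The share was 58.8% among those higher and 40.2% among those lower in relapse. The share for all genes was not split by direction, so these shares have no matching baseline.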

How the data were processed

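RNA of 14 lymph node aspirates was amplified with a whole-transcript kit and hybridised to canine Affymetrix arrays, with a single array for each node. The deposited values are signal intensities of probe sets, not on a log scale. The authors made them with MAS5 (version not given in the sources used here), which sets the trimmed mean of every array to 500. Here log2 was applied and the arrays were not rescaled. Of 43035 probe sets, the 29254 with exactly 1 gene symbol (annotation of 2016) gave 15115 genes, each the mean of its probe sets' log2 signals, and the 8567 that reached 100 on 3 or more of the 10 lymphoma arrays were tested. Probe sets with no symbol were 13231, with several 439 and controls 111. By gene ID, 27680 probe sets matched the RefSeq table of the dog, and no symbol changed.

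Relapsed and naive dogs were compared by linear models with class as covariate (lmFit and eBayes of limma, version 3.58.1, under R 4.3.3, with 9.54 total degrees of freedom), Benjamini-Hochberg adjustment and a threshold of 0.05. The difference between classes was an interaction term. Variance shares used vegan 2.7.1 on Euclidean distances, and figures matplotlib 3.10.9. The number of arrays, 4 against 6, limits the precision, and p-values measure the spread between dogs. Status, class, sex, clinic, stage and diagnosis came from the study's tables and clustering through the dog's ID. The members and the 31 gene lists (944 of 1137 genes measured) were chosen with earlier results of these data known. Named genes are those past the threshold, then those of smallest p up to 10 in each direction, up to 4 of smallest p in a list (6 for transporters and drug targets), and ABCB1, ABCC1, ABCG2, TOP2A, NR3C1 and FKBP5. CD79A, CD79B, CD22, CD3E, MPO, ELANE and SERTAD1 were named after their values were seen. C1QB, BCL2L11 and FANCD2 also fall outside the rule. The fit and the variance shares were tested on simulated data. Alternatives changed the filter, scaling, pseudocount, floor, gene summary, covariates, arrays, test and unit, and left out each dog in turn. No genome coordinates or sequences were used.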

Additional observations from a re-analysis of the deposited data

Results flagged for a closer look

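In 162 groups of 4 to 6 arrays, 5 single dogs stood far from the rest of their group in a named gene, where chance alone sets apart about 1 group in 20. UBB in the relapsed group was highest in FS25 at a log2 signal of 12.54, with the next dog at 11.82. ABCB1 in the naive group was lowest in NE41 at 2.55, with the next at 6.04. RRM2B in the relapsed group was highest in FS21 at 8.43, with the next at 7.51. CD14 in the naive group was lowest in RB16 at 6.97, with the next at 7.82. SPI1 in the naive group was lowest in RB10 at 1.73, with the next at 5.98.

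SERTAD1 was the gene called for a difference between classes, by 5.11 on the log2 scale (limma adjusted p = 0.0176 for the interaction term). It passed the filter only through the groups where it was higher, and without the filter the limma adjusted p was 0.181.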

How the results depend on the processing

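No setting turned the direction of MGMT, MYORG or S100A8, but their calls were not stable: MGMT passed in 6 of 23 other settings that tested it (log2 difference 0.19 to 4.01), MYORG in 12 of 21 (-3.77 to -0.14) and S100A8 in 7 of 27 (2.45 to 4.57). The 3 calls became 1 with a stricter filter on low signals, quantile normalization, median centring, signals raised to 100, the brightest probe set, all 14 arrays, limma with trend and robust, or the methods' t-test. They became 0 with diagnosis in place of class (449 genes at an unadjusted p under 0.05), in E-J alone (339), K-N alone (406) or clinic RB alone (493), for probe sets in place of genes (1277) and for probe sets with no symbol (295), and 6 with class and sex. Leaving out 1 dog gave 0 to 3: 0 without RB07, NE45, NE42, NE41 or RB03, 1 without FS25, FS22 or RB10, and 3 without FS21 or RB16. The single gene that depended on class became 0 without a filter, with the stricter filter or with centring. The count was 3 with the brightest probe set, and 0 to 4 when 1 dog was left out. With 50 added or with signals raised to 100 the count stayed 1, but the gene called was not SERTAD1. The share of variance kept its side of the threshold throughout (9.49 to 10.9% without 1 dog). The causes were not tested.

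Some log2 differences of genes that had not passed changed sign. By the brightest probe set CASP2 had -0.046, RECQL5 -0.074, KIF4A 0.297 and EIF2S3 0.270, and by linear means KIF4A 0.095 and EIF2S3 0.117. With signals raised to 100, KIF4A had 0.148, ABCB1 0.247 and BLK 0.061, with 50 added ABCB1 had 0.047, and after quantile normalization ABCC10 had -0.005. With class and sex, CD79A had 0.20, SERTAD1 -0.849, EIF2S3 0.706, TOP2A -0.214 and ABCC10 -0.129, and with class and clinic CD79A had 1.347 and ABCB1 0.652. Without class ABCC5 had 0.336 and ABCB1 0.162, and with diagnosis ABCC5 had 0.045. In E-J alone BCL2L11 had -0.354, ABCC10 -0.026, CD79B 0.180, BLK 0.107, MVP -0.255 and CD79A 0.428, and in K-N alone ABCB1 had 0.729. In clinic RB alone NR3C1 had 0.370, ABCC1 -0.380, ABCB1 1.624, SESN1 -0.895 and DLA-DMB -0.229. Leaving out 1 dog gave ABCB1 -0.740 to 0.845, ABCC5 -0.548 to 0.116, ABCC10 -0.155 to 0.268, CD79A -1.621 to 0.308 and SERTAD1 -0.412 to 0.832. No paired analysis was possible because the relapsed and naive dogs are different animals with no shared replicate number in the labels.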
